A study of Mus musculus with 24 samples.

Results

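A set of 10 genes that mark mast cells was followed in mouse mammary tissue: Cpa3, Cma1, Mcpt4, Tpsb2, Tpsab1, Ms4a2, Fcer1a, Fcer1g, Hdc and Kit. They were found by gene name among the probes of the arrays that are not controls. All 10 were found among 34797 gene names, with 11 of 55681 probes, because Tpsb2 has a pair of probes. RNA of 24 mammary tissues was hybridised in a single colour, each to its own Agilent array. Female mice were exposed at 8 to 9 weeks of age to a single whole-body X-ray dose of 10 cGy, called low-dose ionizing radiation (LDIR), or to sham treatment.

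There were 8 groups of 3 arrays. BALB/c sham and BALB/c LDIR tissues were taken at each of 2, 4 and 8 weeks after exposure, and SPRET/EiJ sham and SPRET/EiJ LDIR tissues at 4 weeks. BALB/c mice, widely used in the laboratory, carry polymorphisms that lower the activity of a DNA repair kinase, in sham and LDIR groups alike. SPRET/EiJ mice belong to a different species, Mus spretus, and were bred from wild animals. Replicates are named by the letters A, B and C of the labels. The labels do not say more about the source of a replicate, so p-values measure the spread between these samples only.

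Mast cells are resident immune cells that mature in tissues under signals from the receptor encoded by Kit. Their granules store histamine, which is made by the enzyme encoded by Hdc, and large amounts of proteases. These are the carboxypeptidase encoded by Cpa3, the chymases encoded by Cma1 and Mcpt4, and the tryptases encoded by Tpsb2 and Tpsab1. The granules are released when allergen crosslinks IgE bound to the high-affinity IgE receptor, whose chains are encoded by Fcer1a (the chain that binds IgE), Ms4a2 (the signal-amplifying chain) and Fcer1g (the common gamma chain). Fcer1g also serves other Fc receptors of myeloid cells, and Kit is also active in mammary epithelium and melanocytes. Hdc is also active in neutrophils. In the mammary gland mast cells lie in the stroma, often near ducts and vessels.

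Array probes are 60 bases long. Those of Cma1, Tpsab1 and the dimmer Tpsb2 probe are shown because the values of these proteases below rest on them. The Cma1 probe spans 1060 bases of the genome, so it crosses an intron. Positions are those the files give for build mm9: chr14:56561491-56562550 (Cma1, minus strand), chr17:25504493-25504552 (Tpsb2, plus strand) and chr17:25480640-25480699 (Tpsab1, minus strand).
Cma1 probe: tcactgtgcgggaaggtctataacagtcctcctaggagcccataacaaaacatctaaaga
Tpsb2 dimmer probe: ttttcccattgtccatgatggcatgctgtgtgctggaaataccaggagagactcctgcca
Tpsab1 probe: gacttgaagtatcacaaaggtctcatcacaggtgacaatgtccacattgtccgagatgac
The brighter Tpsb2 probe, which stands for the gene below, lies at chr17:25504819-25504878 of the same transcript. The Cpa3 probe lies at chr3:20115674-20115733, the Mcpt4 probe at chr14:56678589-56678648 and the Hdc probe at chr2:126419516-126419575, all on the minus strand. Neither the SPRET/EiJ sequence under the probes nor binding of 1 tryptase's RNA to the other's probe was examined.

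The bases just before the transcription start are shown for 3 proteases that varied together between arrays, described below, and for Hdc, which did not vary with them. They are the last 120 bases before the RefSeq start of each gene on the minus strand of GRCm38.p6, at chr3:20242182-20242301 (Cpa3), chr14:55944676-55944795 (Cma1), chr14:56062311-56062430 (Mcpt4) and chr2:126618679-126618798 (Hdc). Capitals mark the binding word of GATA factors, which is GATA with A or T before it and A or G after it, read on either strand.
Cpa3: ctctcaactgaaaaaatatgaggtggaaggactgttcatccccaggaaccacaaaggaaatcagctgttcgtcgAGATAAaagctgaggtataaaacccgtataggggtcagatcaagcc
Cma1: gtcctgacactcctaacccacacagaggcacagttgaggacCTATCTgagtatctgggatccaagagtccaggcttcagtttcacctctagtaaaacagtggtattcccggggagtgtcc
Mcpt4: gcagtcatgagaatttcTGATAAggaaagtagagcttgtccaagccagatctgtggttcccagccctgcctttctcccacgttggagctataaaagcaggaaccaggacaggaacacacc
Hdc: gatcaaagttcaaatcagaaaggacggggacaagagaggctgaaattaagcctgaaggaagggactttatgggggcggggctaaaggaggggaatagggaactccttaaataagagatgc
RefSeq promoters were at hand for 8 of the 10 genes, all but Tpsb2 and Tpsab1. In the 250 bases before the start, 6 of these 8 (Cpa3, Cma1, Mcpt4, Ms4a2, Fcer1a and Hdc) held such a word on either strand, as did 29.7% of 27025 genes. The factor Mitf can bind CACATG, which was searched on both strands. It can also bind the palindrome CACGTG. Either word was in 1 of the 8 (Fcer1a) and in 19.8% of genes. No word of one kind overlaps one of the other kind in the stretches shown.

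Levels below are log2 intensities from which the array's own 75th percentile was subtracted, so that 0 is the brightness of a probe at that percentile. They compare the same probe between arrays and never one gene with another. The share of probes well above background was 57.2% to 72.7% by array. Of the 10 genes, 7 were well above background on all 24 arrays: Cpa3, Cma1, Mcpt4, Tpsb2, Fcer1g, Hdc and Kit. Fcer1a was so on 20 arrays, Tpsab1 on 14 and Ms4a2 on 2. All 7 epithelial and all 5 white adipocyte markers listed were above background on all 24 arrays. On 3 arrays (BALB/c sham A and BALB/c LDIR B at 8 weeks, and SPRET/EiJ LDIR A) the T cell gene Cd3d had levels of 3.81 to 4.45, against -3.86 to -1.32 on the other arrays. Fits of the 10 genes that hold these arrays were repeated without them, and values without them are given for some results only. The correlations over 24 arrays were not repeated without these 3 arrays. The arrays lay on 3 slides of 8 arrays, with all 2-week arrays on slide 1 and all SPRET/EiJ arrays on slide 3. In such bulk tissue, fewer mast cells and less RNA per mast cell cannot be told apart.

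**Figure D1:**
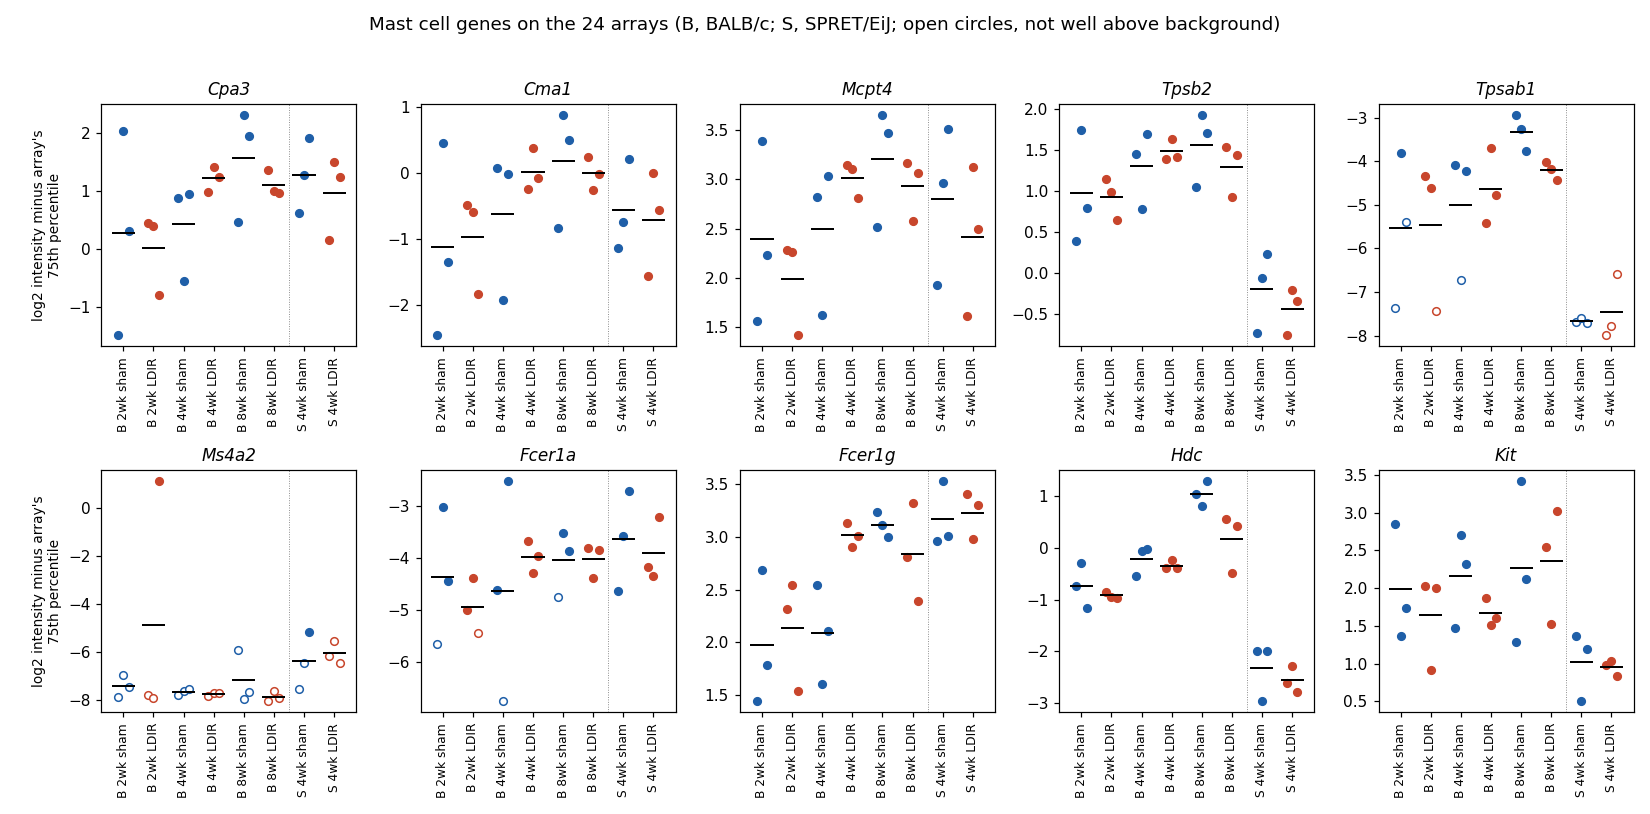
Level of each gene (y axis, log2 intensity minus the array's 75th percentile, with a scale of its own per gene) on the 24 arrays, by group (x axis). Each circle is 1 array (blue sham, red LDIR, open where not well above background) and the bar is the mean of 3 arrays. Tpsb2, Tpsab1 and Hdc sit lower in SPRET/EiJ than in BALB/c at 4 weeks, while Cpa3, Cma1 and Mcpt4 spread widely within the groups.

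To see how far mast cell transcripts differ within a group, the arrays of each group were compared first. Cpa3 in BALB/c sham tissue at 2 weeks stood at -1.49, 2.02 and 0.30 on arrays A, B and C. In the LDIR tissues of the same time it stood at 0.44, 0.38 and -0.80. Array B of the sham group was thus far above array A, and the groups overlapped. At 4 weeks Cpa3 stood at 0.88, -0.56 and 0.94 in sham and at 0.98, 1.41 and 1.24 in LDIR tissues of BALB/c. At 8 weeks it stood at 0.45, 2.29 and 1.94 in sham and at 1.36, 1.00 and 0.95 in LDIR tissues. Over the 18 BALB/c arrays the level of Cpa3 ranged from -1.49 to 2.29, a 13.8-fold range of intensity. In SPRET/EiJ it stood at 0.61, 1.27 and 1.91 in sham and at 0.16, 1.49 and 1.23 in LDIR tissues, a 3.37-fold range.

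The chymases spread in the same way. Cma1 ranged from -2.47 to 0.87 in BALB/c and from -1.57 to 0.21 in SPRET/EiJ. Mcpt4 ranged from 1.42 to 3.65 and from 1.61 to 3.51 in the same strains. Within groups, the pooled standard deviation (SD, 16 degrees of freedom) was 0.89 for Cpa3, 0.87 for Cma1 and 0.65 for Mcpt4 on the log2 scale. The median probe among the 29342 that were above background on all arrays had an SD of 0.31, and 97.5%, 97.4% and 92.6% of those probes had a smaller SD than these 3 genes. Tpsb2 with 0.42, Fcer1g with 0.40 and Hdc with 0.36 were nearer to that median, and Kit had an SD of 0.65.

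The protease genes were high and low on the same arrays. After each level was taken as a deviation from its group mean, Cma1 followed Cpa3 over the 24 arrays with Pearson's r = 0.97 and Spearman's rho = 0.97 (two-sided permutation p = 1e-05 for both, the smallest that 100000 permutations within groups can give). Tpsb2 followed Cpa3 with r = 0.93 and rho = 0.90 (permutation p = 1e-05 and 2e-05). Mcpt4 did so with r = 0.92 and rho = 0.92 (permutation p = 6e-05 and 7e-05). These 3 relations were as strong without the 2 arrays farthest in Cpa3 (r = 0.97, 0.91 and 0.93), and on each slide r lay between 0.85 and 0.99. Among 20122 named genes above background on all arrays, 8 followed Cpa3 with r over 0.9, which is 0.0398%, and the 3 proteases were among these 8. The median gene had r = 0.03.

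The other members followed Cpa3 less closely. Fcer1a had r = 0.76 and rho = 0.71 (permutation p = 0.00114 and 0.00411), and r = 0.69 without the 2 farthest arrays. Tpsab1 had r = 0.73 and rho = 0.56 (permutation p = 0.00684 and 0.0191). Its r fell to 0.57 without those 2 arrays, and by slide it was 0.93, 0.08 and 0.34, on slides 1, 2 and 3, so the relation was not seen on every slide. Tpsab1 was above background on 14 arrays only and Fcer1a on 20. Fcer1g had r = 0.55 and rho = 0.33 (permutation p = 0.0612 and 0.207), with slide values of 0.92, -0.64 and -0.17. Hdc had r = 0.16 and rho = 0.22 (permutation p = 0.594 and 0.390) and Kit r = -0.22 and rho = -0.15 (permutation p = 0.472 and 0.590). The slide values of Kit were -0.81, 0.81 and -0.08. Ms4a2, with 2 arrays above background, had r = -0.22 and rho = -0.07 (permutation p = 0.324 and 0.801). Of the 9 relations, 5 had a Benjamini-Hochberg adjusted permutation p under 0.05 over the family of 9 for both measures: 4.5e-05 for the r of Cma1 and Tpsb2, 0.000180 for Mcpt4, 0.00256 for Fcer1a and 0.0123 for Tpsab1.

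Fcer1g and Kit varied with markers of other cells. These pairs of genes were chosen after the levels had been seen. Fcer1g followed Tyrobp, the adaptor of activating receptors on myeloid cells, with r = 0.80 and rho = 0.85 (permutation p = 0.000170 and 0.000250), and with r between 0.59 and 0.97 on each slide. Kit followed Elf5, a transcription factor of alveolar epithelium, with r = 0.83 and rho = 0.90 (permutation p = 5e-05 and 6e-05), and with r between 0.74 and 0.98 on each slide. Without the 2 arrays farthest in the marker, r was 0.75 for Fcer1g and 0.94 for Kit. The adjusted permutation p over these 2 relations was 0.000170 and 0.0001 for r. This adjustment does not cover the choice of Tyrobp and Elf5 from longer lists of markers.

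**Figure D2:**
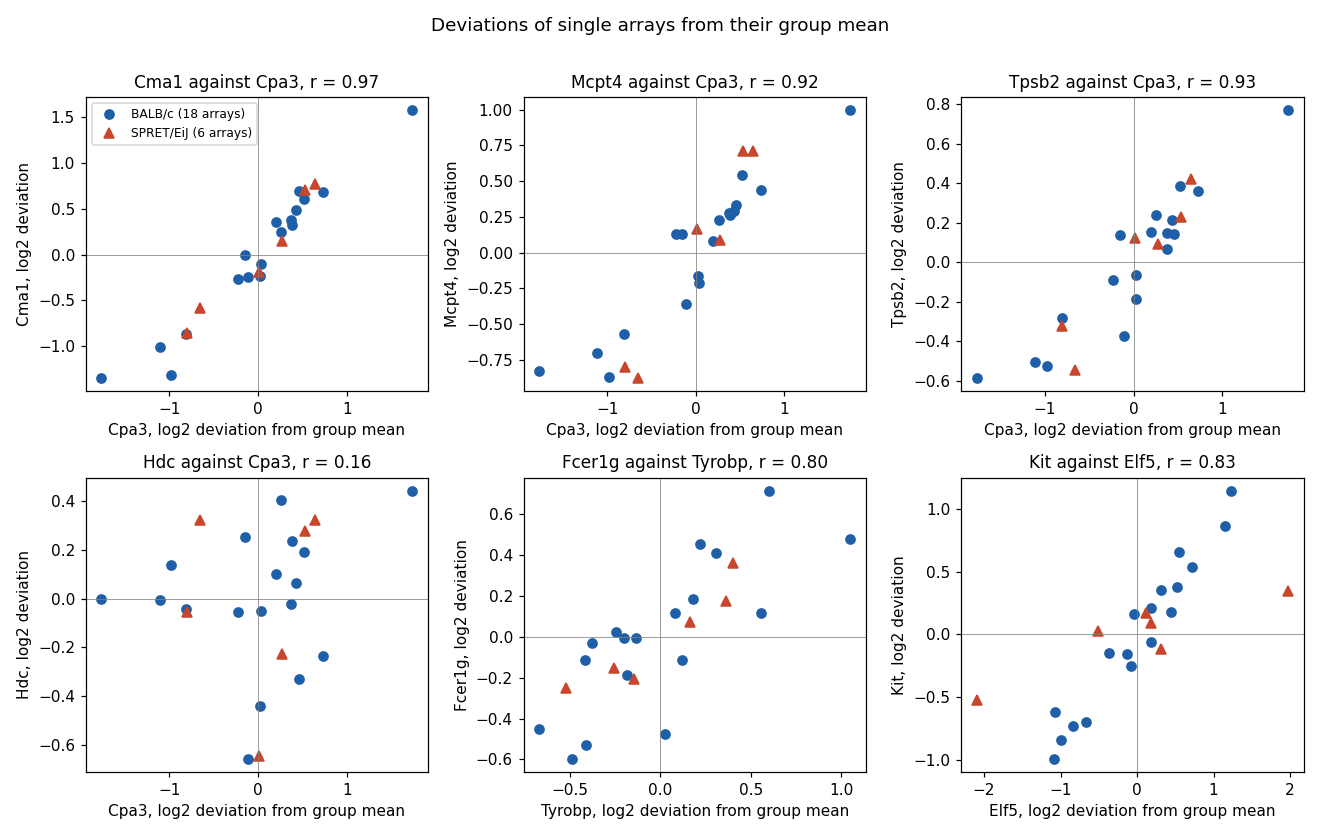
Deviation of each array from its group mean for 6 gene pairs (both axes in log2 units), with circles for the 18 BALB/c and triangles for the 6 SPRET/EiJ arrays. Cma1, Mcpt4 and Tpsb2 lie close to a line against Cpa3 (r = 0.97, 0.92 and 0.93), Hdc does not (r = 0.16), and Fcer1g and Kit rise with Tyrobp (r = 0.80) and Elf5 (r = 0.83).

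The genes most like the members were ranked by the correlation, over the 24 arrays, of their deviations with the mean deviation of the 7 members above background on all arrays. Among 20116 other named genes the first 5 were Cma2 (r = 0.94), a chymase gene next of kin to Cma1, Mrgprb1 (0.93), a receptor gene of the Mas-related family, Mcpt-ps1 (0.93), a mast cell protease pseudogene, Rcn3 (0.92), a calcium-binding protein of the endoplasmic reticulum, and Il1rl1 (0.91), the interleukin 33 receptor. Cma2, Mrgprb1 and Il1rl1 are in the lists of mast cell genes used here. Another 2 probes that carry no gene name ranked above the fifth of these genes.

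The baseline strain comparison asked which of the genes differ between BALB/c and SPRET/EiJ mammary tissue at 4 weeks after sham treatment. Hdc was higher in BALB/c, and it alone of the 10 passed the thresholds, which were an unadjusted p below 0.001 together with a difference over 1.5-fold. Hdc stood at -0.53, -0.07 and -0.01 on the 3 BALB/c arrays and at -2.0, -2.97 and -2.0 on the 3 SPRET/EiJ arrays. Every BALB/c array lay above every SPRET/EiJ array. The log2 difference was 2.12 ± 0.32 (standard error, SE, n = 3 and 3), a 4.35-fold difference with an adjusted p of 0.00700 by limma over all probes. That is 1 of 10 genes, against 8.85% of all probes called in this comparison and 5.43% called higher in BALB/c. Counting by an adjusted p under 0.05 by limma, 3 of the 10 passed, against 18.7% of probes. The median of the 10 differences was -0.19, against -0.06 over all probes. Without any single array other than SPRET/EiJ sham B, the p of Hdc by limma rose above 0.001 (0.00107 to 0.00276). Over all 6 fits with 1 array left out, SPRET/EiJ sham B included, its difference stayed between 1.80 and 2.29. After normexp background correction with an offset of 50 the difference of Hdc was 1.49, and it was called.

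Both tryptase genes were also higher in BALB/c, with an adjusted p under 0.05 by limma but short of the p threshold of the call. Tpsb2 stood at 1.45, 0.78 and 1.69 in BALB/c and at -0.73, -0.06 and 0.23 in SPRET/EiJ, without overlap. Its log2 difference was 1.49 ± 0.35 (SE), 2.81-fold, with an unadjusted p of 0.00443 and an adjusted p of 0.0302 by limma. The dimmer Tpsb2 probe, which lies elsewhere in the transcript, gave 1.68 ± 0.53 with an adjusted p of 0.0771 by limma. Tpsab1 stood at -4.10, -6.73 and -4.22 in BALB/c, where array B was not well above background, and at -7.68, -7.60 and -7.71 in SPRET/EiJ, where no array was. By a bound set from the background, the BALB/c intensity was 5.59-fold higher. This bound sets the BALB/c mean over all 3 arrays against a floor on the SPRET/EiJ arrays. The floor is the lowest signal of any probe well above background, or the probe's own where that is higher. The bound is no strict minimum, because this probe was not well above background at -5.40 on BALB/c sham array C of 2 weeks. The same limit holds for each "at least" value below. The fit gave 2.65 ± 0.70 with an adjusted p of 0.0459 by limma, and 0.37 after normexp correction. Without each array in turn, the adjusted p of Tpsb2 ranged up to 0.0981 and that of Tpsab1 up to 0.134 by limma. Without BALB/c sham B, the array with the lowest Cpa3 level of its group, Tpsab1 passed the thresholds with 3.50 and an unadjusted p of 3.13e-06.

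The other granule proteases gave no call, with wide error. The difference of BALB/c minus SPRET/EiJ was -0.84 ± 0.51 for Cpa3, -0.07 ± 0.63 for Cma1 and -0.30 ± 0.53 for Mcpt4, with adjusted p of 0.327, 0.952 and 0.735 by limma. All 3 genes overlapped between the strains. Fcer1a overlapped as well, and the remaining genes did not. Tpsb2, Tpsab1, Hdc and Kit were higher in BALB/c, while Fcer1g and Ms4a2 were lower. For Ms4a2 the highest BALB/c array stood at -7.52 and the lowest SPRET/EiJ array at -7.51, neither well above background. The share of all probes without overlap was not counted, here or in the comparisons below.

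The receptor genes gave no call. Fcer1g was at 2.54, 1.61 and 2.11 in BALB/c and at 2.96, 3.52 and 3.01 in SPRET/EiJ, a difference of -1.08 ± 0.29 with an adjusted p of 0.0512 by limma. In the same comparison Tyrobp differed by -0.95 ± 0.24 (adjusted p = 0.0408 by limma) and the macrophage gene Cd68 by -1.26 ± 0.30 (adjusted p = 0.0347 by limma). The summed level of the 9 myeloid markers listed was 47.4 to 75.4 in BALB/c sham and 94.1 to 115 in SPRET/EiJ sham tissues at 4 weeks, in units of the 75th percentile, and none of the 9 passed the call. Kit was at 1.47, 2.70 and 2.33 in BALB/c and at 1.37, 0.50 and 1.20 in SPRET/EiJ, a difference of 1.14 ± 0.39 with an adjusted p of 0.0952 by limma. The summed level of the 7 epithelial markers was 114 to 226 in BALB/c sham and 24.2 to 113 in SPRET/EiJ sham tissues at 4 weeks. The part of these other cells in the values of Fcer1g and Kit was not tested. Fcer1a differed by -0.98 ± 1.07 and Ms4a2 by -1.26 ± 0.56, where Ms4a2 was above background on 1 of the 6 arrays.

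Strain differences after LDIR at 4 weeks were taken from the other 6 arrays. Hdc and Tpsb2 were again higher in BALB/c, and 3 of the 10 genes passed the thresholds, against 5.67% of all probes. The 2 higher in BALB/c stand against 3.82% of probes and the 1 lower against 1.85%, and 4 of the 10 had an adjusted p under 0.05 by limma, against 11.1%. Hdc stood at -0.39, -0.24 and -0.39 in BALB/c and at -2.62, -2.28 and -2.79 in SPRET/EiJ. The difference of 2.22 ± 0.23 was 4.67-fold with an adjusted p of 0.00257 by limma, and after normexp correction it was 1.59. Tpsb2 stood at 1.39, 1.64 and 1.42 in BALB/c and at -0.76, -0.20 and -0.34 in SPRET/EiJ. Its difference of 1.92 ± 0.24 was 3.77-fold with an adjusted p of 0.00524 by limma, and the dimmer probe gave 2.38 ± 0.34 (adjusted p = 0.00816 by limma). Neither gene overlapped between the strains. Without BALB/c LDIR B the p of Tpsb2 was 0.00113 with a difference of 1.84, so that it missed the p threshold.

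The third gene called was Ms4a2, lower in BALB/c, but no array of either group was well above background, so the size of its difference is not given. Its call was lost in 10 of 14 alternative settings. Tpsab1 stood at -5.43, -3.71 and -4.77 in BALB/c, above background on all 3 arrays, and at -7.99, -7.78 and -6.58 in SPRET/EiJ, above it on none. By the same bound the BALB/c level was 6.59-fold that of SPRET/EiJ, with an adjusted p of 0.0229 by limma. After normexp correction its difference was 0.35. Cpa3, Cma1 and Mcpt4 differed by 0.25 ± 0.38, 0.73 ± 0.43 and 0.61 ± 0.40 with overlapping strains (adjusted p = 0.712, 0.357 and 0.413 by limma), and Fcer1g by -0.21 ± 0.23 (adjusted p = 0.605 by limma). Kit differed by 0.71 ± 0.22 without overlap (adjusted p = 0.0938 by limma). Elf5 differed by 1.84 ± 0.31 on the same arrays. Without SPRET/EiJ LDIR A, which held a high Cd3d level, the differences were 2.20 for Hdc, 1.76 for Tpsb2 and -0.15 for Cpa3.

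In both strain comparisons the strains lay on different slides. After LDIR, slide 2 held BALB/c and slide 3 SPRET/EiJ, and slide and strain cannot be told apart. Among sham tissues BALB/c lay on slides 1 and 2 and SPRET/EiJ on slide 3. A slide block therefore cannot part strain from slide there either. With slide as a random block, which cannot part them either, Hdc, Tpsb2 and Tpsab1 differed by 2.12, 1.48 and 2.63 (adjusted p = 0.00455, 0.0214 and 0.0331 by limma). The part of slide in these differences was not tested.

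**Figure D3:**
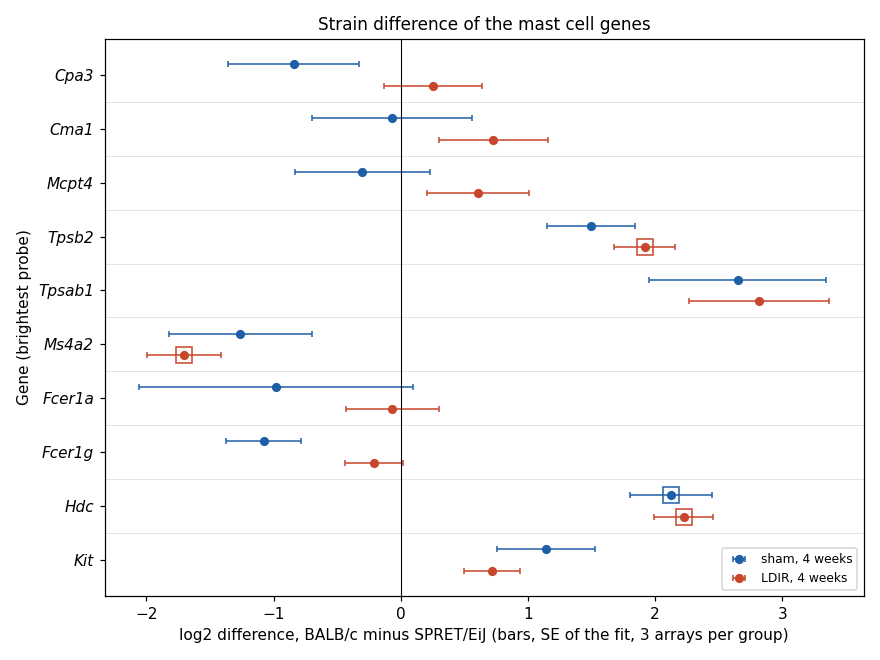
Strain difference of the 10 genes (x axis, log2 of BALB/c minus SPRET/EiJ, with bars of 1 SE, 3 arrays per group) at 4 weeks, in sham (blue) and LDIR (red) tissues, with squares around differences past the thresholds. Hdc, Tpsb2 and Tpsab1 lie between 1.49 and 2.82 in both, while Cpa3, Cma1 and Mcpt4 lie between -0.84 and 0.73.

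Other mast cell genes were read from lists in the same strain comparisons. Their counts stand against 8.85% of all probes called in sham tissues and 5.67% after LDIR, and with so few genes a list they are given as counts only. Of 6 other mast cell proteases, 1 was called in sham tissues, Mcpt2, at least 5.20-fold higher in BALB/c, and none after LDIR, when the difference of Mcpt2 was -0.26 ± 0.53. Of 8 other mast cell receptors, 3 were higher in BALB/c sham tissues and none lower. They were Mrgprb2, the receptor for basic secretagogues, at least 7.15-fold higher, the adenosine receptor gene Adora3, at least 15.8-fold higher, and Cd63, a granule membrane protein that many cells make, higher by 2.17 ± 0.23. After LDIR, Mrgprb2 (at least 8.88-fold) and Cd63 (2.10 ± 0.21) were called again. The Mrgprb2 probe and the brighter Adora3 probe were not well above background on any of the 3 SPRET/EiJ sham arrays. A second, dimmer Adora3 probe, well above background on 2 of these arrays, ranged from -6.35 to -4.74 on those arrays and from -5.91 to -4.49 on the BALB/c sham arrays of 4 weeks, so the Adora3 probes disagree. Mrgprb1, a close relative of Mrgprb2, differed by -0.48 ± 0.58 and Cma2 by -0.50 ± 0.46 in sham tissues (adjusted p = 0.632 and 0.531 by limma).

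Of 9 granule and mediator genes, 1 was called in sham tissues and none after LDIR. This was Alox5ap, the activating protein of leukotriene synthesis, which differed by -1.14 ± 0.17 and was thus higher in SPRET/EiJ. Among 12 genes of IgE receptor signalling, 3 were called in sham tissues. The kinase gene Syk with 5.89 ± 0.25 and the adaptor gene Lat2 with 1.67 ± 0.24 were higher in BALB/c. The kinase gene Lyn with -1.90 ± 0.29 was higher in SPRET/EiJ. Syk stood at -5.84, -5.16 and -5.13 on the SPRET/EiJ sham arrays, of which 2 were well above background, so the size of its difference is uncertain. After LDIR, Syk alone was called. It stood at 1.19, 0.96 and 0.69 in BALB/c and at -2.29, -5.50 and -4.89 in SPRET/EiJ, where array A, with the high Cd3d level, was the only one well above background, and the fit without that array was not made for Syk. The 4-week BALB/c arrays gave no signal well above background at a second, dimmer Syk probe. None of 7 mast cell transcription factors and none of 6 growth factors was called in either comparison by limma, although 2 growth factors had an adjusted p under 0.05 in sham tissues. Gata2 differed by 0.29 ± 0.22 and Mitf by -0.53 ± 0.18 in sham tissues, and Kitl, the ligand of the Kit receptor, by 0.30 ± 0.51. None of 4 basophil markers was called in either comparison, with 1 of them at an adjusted p under 0.05 in sham tissues. Of 4 lymphocyte markers, 1 was called in sham tissues, the B cell gene Cd79a, higher in SPRET/EiJ with -1.29 ± 0.19, while the list median was 0.02. Cd79a was called again after LDIR with array A included. Of 5 white adipocyte markers, 1 was called in each comparison, Plin1, higher in BALB/c with 3.86 ± 0.44 and 4.08 ± 0.47. The median of the 5 adipocyte markers was 0.07 in sham tissues and 0.39 after LDIR.

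LDIR was then compared with sham within each strain and time, the call being an unadjusted p below 0.05 together with a 1.5-fold change. Few mast cell genes changed. None of the 10 was called in BALB/c at 2 weeks, 1 at 4 weeks, 2 at 8 weeks, and none among the SPRET/EiJ mice. These counts stand against 3.13%, 4.78%, 1.8% and 2.2% of all probes. No probe on the array had an adjusted p under 0.05 by limma in these 4 comparisons. At an unadjusted p under 0.05 alone, the counts of members were again 0, 1, 2 and 0, against 5.01%, 6.09%, 1.86% and 2.21% of probes. With the methods' t-test the counts were 0, 1, 1 and 0.

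At 2 weeks, Cpa3 changed by -0.27 ± 0.88 and Mcpt4 by -0.41 ± 0.50 (SE, LDIR minus sham), within the spread described above. The 10 changes had a median of -0.12, against 0.0044 over all probes, and all 10 genes overlapped between the groups. The largest difference, 2.56 ± 2.39 for Ms4a2 (unadjusted p = 0.324 by limma), came from a single array. Ms4a2 stood at 1.11 on LDIR array C and between -8.04 and -5.17 on the other 23 arrays. Of the listed genes, the signalling adaptor gene Lcp2 was called with -0.95 ± 0.26, where 1 of 3 LDIR arrays was above background, and the B cell gene Ms4a1 was at least 2.45-fold higher after LDIR. The epidermal keratin gene Krt1 was also called higher but was not well above background on any of the 6 arrays, and is named after its values were seen.

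At 4 weeks in BALB/c, Fcer1g was higher after LDIR. It stood at 2.54, 1.61 and 2.11 in sham and at 3.13, 2.90 and 3.01 in LDIR tissues, without overlap. The change of 0.93 ± 0.26 (SE, n = 3 and 3) was 1.90-fold, with limma's unadjusted p = 0.0103 and an adjusted p of 0.744, against 3.37% of probes called higher. It was called without each array in turn, with changes of 0.69 to 1.16. Slide 1 held sham arrays A and B, and slide 2 the remaining 4. With slide as a block the change was 0.91 with an unadjusted p of 0.0645 by limma, and within slide 2 sham array C at 2.11 lay below the 3 LDIR arrays.

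Myeloid markers moved with Fcer1g at 4 weeks. Of the 9 listed, 5 were called, against 4.78% of all probes, and all 5 were higher after LDIR, against 3.37%: Cd68 by 0.82 ± 0.22, Tyrobp by 0.64 ± 0.19, the mannose receptor gene Mrc1 by 0.77 ± 0.23, Adgre1 by 0.73 ± 0.27 and the Fc receptor gene Fcgr3 by 0.94 ± 0.30. Their adjusted p ranged from 0.720 to 0.783 by limma. The summed level of the 9 markers was 47.4 to 75.4 in sham and 79.3 to 100 in LDIR tissues, and all 9 were above background on all arrays. Their part in the change of Fcer1g was not tested. Cpa3 did not overlap between the groups either, with a change of 0.79 ± 0.42 that did not pass the test (unadjusted p = 0.107 by limma). Mcpt4 changed by 0.52 ± 0.38, Cma1 by 0.65 ± 0.56 and Tpsb2 by 0.18 ± 0.26. The IgE-binding chain gene Fcer1a changed by 0.65 ± 0.98 and Ms4a2 was below background on all 6 arrays.

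Of the other mast cell lists at 4 weeks in BALB/c, 2 of 6 proteases were called, in opposite directions. The tryptase gene Tpsg1 changed by 0.64 ± 0.25 and Mcpt2 by -1.12 ± 0.42, where 1 of 3 LDIR arrays was above background for Mcpt2. The leukotriene genes Alox5 and Alox5ap, 2 of 9 mediator genes and both also active in macrophages, were higher by 0.89 ± 0.32 and 0.80 ± 0.17. The transcription factor gene Bhlhe40 was lower by 0.75, the fitted change being -0.75 ± 0.17, and the cytokine gene Il4 was higher by 0.74 ± 0.26. None of the 8 receptors and none of the 12 signalling genes was called by limma. Krt14 and Krt5, 2 of 7 epithelial markers, were lower, Krt14 with -0.92 ± 0.30.

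At 8 weeks in BALB/c, Tpsab1 and Hdc were lower after LDIR, as were 1.64% of probes. Tpsab1 stood at -2.95, -3.26 and -3.77 in sham and at -4.01, -4.17 and -4.42 in LDIR tissues, without overlap. The change was -0.87 ± 0.30, with limma's unadjusted p = 0.0263. Hdc stood at 1.05, 0.82 and 1.29 in sham and at 0.57, -0.49 and 0.42 in LDIR tissues, also without overlap. Its change was -0.89 ± 0.36 with limma's unadjusted p = 0.0476. The adjusted p was 1.00 for both genes. The median change over all probes was -0.14 in this comparison, and over the 10 genes -0.27.

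These 2 calls were not stable. Slide 3 held LDIR arrays B and C, and slide 2 the remaining 4. With slide as a block the changes were -0.68 for Tpsab1 and -0.48 for Hdc, with unadjusted p of 0.191 and 0.376 by limma. Within slide 2, LDIR array A lay below all 3 sham arrays for both genes. The summed level of the 4 lymphocyte markers was 4.96 to 64.9 in sham and 5.66 to 82.3 in LDIR tissues, the high values being those of sham array A and LDIR array B. Without these 2 arrays, Tpsab1 changed by -0.70 and Hdc by -0.56, with unadjusted p of 0.0678 and 0.0805 by limma. Cpa3 changed by -0.46 ± 0.52 with all arrays and by -0.96 without these 2 arrays (unadjusted p = 0.0182 by limma), when it passed the thresholds. It did so as well without sham array A alone (-1.01, unadjusted p = 0.00975 by limma). Mcpt4 changed by -0.28 ± 0.38 and Tpsb2 by -0.26 ± 0.33.

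In SPRET/EiJ at 4 weeks the changes after LDIR lay between -0.39 and 0.33. Mcpt4 changed by -0.39 ± 0.53, Cpa3 by -0.31 ± 0.47 and Hdc by -0.24 ± 0.35, and all 10 genes overlapped between the groups. Without LDIR array A, Mcpt4 and Cpa3 changed by 0.013 and 0.096. Of the listed genes, Mcpt2, named after its values were seen, was called higher after LDIR, with 1 of 3 LDIR arrays and no sham array above background.

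**Figure D4:**
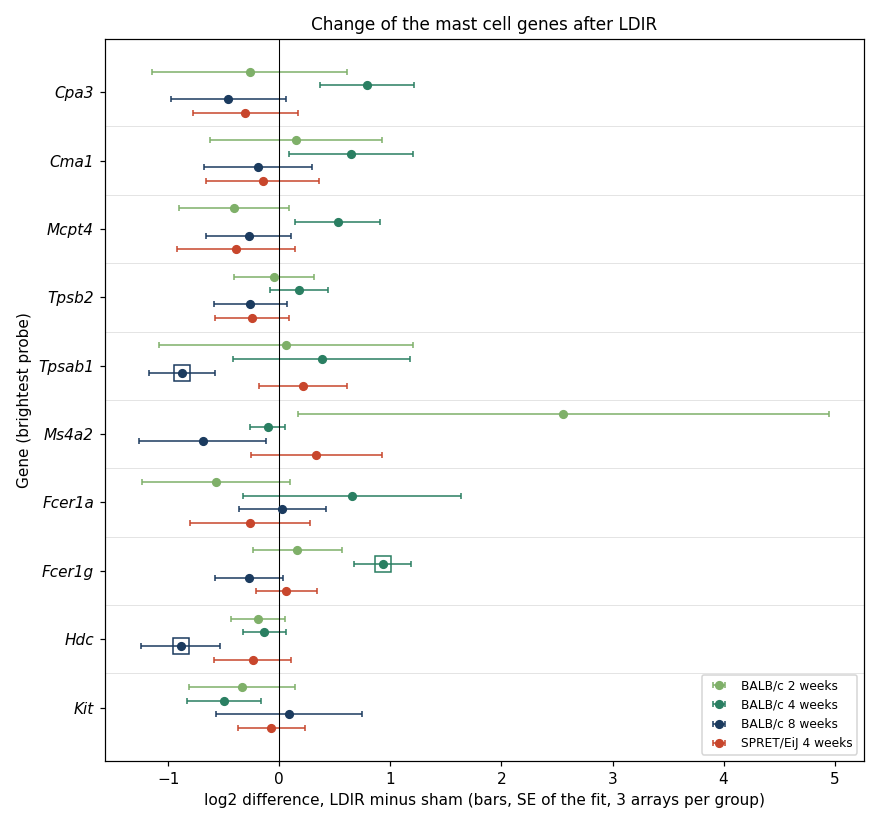
Change of the 10 genes after LDIR (x axis, log2 of LDIR minus sham, with bars of 1 SE, 3 arrays per group) coloured by comparison (light green, green and dark blue for BALB/c after 2, 4 and 8 weeks, red for SPRET/EiJ after 4 weeks), with squares around changes past the thresholds. The squares mark Fcer1g at 4 weeks (0.93) and Tpsab1 (-0.87) and Hdc (-0.89) at 8 weeks in BALB/c, and the Ms4a2 value of 2.56 at 2 weeks comes from 1 array.

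Over the 18 BALB/c arrays, with time in the fit, no member was called, against 1.08% of probes. Hdc had the smallest p, with a change of -0.40 ± 0.17 (unadjusted p = 0.0312 and adjusted p = 0.997 by limma), which is under 1.5-fold. Cpa3 changed by 0.02 ± 0.41 and Mcpt4 by -0.05 ± 0.27. The difference between the strains in the LDIR change at 4 weeks was tested as an interaction over 12 arrays. Fcer1g, with 0.87 ± 0.38 (unadjusted p = 0.0424 and adjusted p = 0.957 by limma), was the single member called, against 3.53% of probes, 1.95% with a positive sign. Of the list genes, the myeloid marker Mrc1 was called with 0.98 ± 0.42, Tpsg1 with 1.20 ± 0.50 and the cytokine gene Tslp with 1.44 ± 0.50. Mcpt2 was called too, but no size is given, since it was well above background on no SPRET/EiJ sham array and on 1 of 3 arrays of each LDIR group. The interaction of Cpa3 was 1.1 ± 0.68 and that of Hdc 0.10 ± 0.41.

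Time after exposure, and with it age, was compared over the same 18 BALB/c arrays. Hdc rose with time. Its group means were -0.73 ± 0.44 (SD, n = 3), -0.20 ± 0.29 and 1.05 ± 0.24 in sham tissues at 2, 4 and 8 weeks, and -0.92 ± 0.06, -0.34 ± 0.09 and 0.17 ± 0.57 in LDIR tissues. From 4 to 8 weeks the fitted difference was 0.88 ± 0.21 with an adjusted p of 0.00743 by limma, the single call among the 10 genes, while 20.5% of all probes were called and 6.7% called higher at 8 weeks (20.9% by an adjusted p under 0.05). From 2 to 4 weeks it was 0.55 ± 0.21 (unadjusted p = 0.0180, adjusted p = 0.557 by limma), under 1.5-fold, and no member was called, against 3.86% of probes. Without BALB/c sham B of 2 weeks, the array with the highest Cpa3 level of its time, 6 of the 10 genes passed the thresholds from 2 to 4 weeks, as did 1896 of the 55681 probes. Markers of other cells were also called from 4 to 8 weeks. Of white adipocyte markers, 4 of 5 were lower (list median -0.72). All 3 skeletal muscle markers (list median 5.79), 2 of 4 lymphocyte and 2 of 7 epithelial markers were higher. Of 4 neutrophil markers, 1 was called higher and 1 lower. The summed level of the adipocyte markers was 1023 to 1711 on the 4-week and 509 to 1147 on the 8-week BALB/c arrays. The part of these other cells in the rise of Hdc was not tested. The 2-week arrays all lay on slide 1, so time and slide overlap in part. Ordered by mean level, Hdc was lowest in SPRET/EiJ LDIR (-2.56) and SPRET/EiJ sham (-2.32) tissues, which overlapped with each other, and highest in BALB/c sham tissues at 8 weeks (1.05). From 4 to 8 weeks the 10 differences had a median of 0.40, against -0.10 over all probes, with Cpa3 at 0.52 ± 0.50 and Mcpt4 at 0.32 ± 0.33.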

How the data were processed

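Total RNA of mammary tissue was hybridised, per the labels, to 1-colour Agilent arrays, 24 arrays in 8 groups of 3. The authors deposited the scanner output of each array, whose intensity values are background-subtracted by the scanner software (Feature Extraction 10.10.1.1, build mm9), and a table of log2 values that the authors had normalized to the 75th percentile. The log2 table has a median of 0 for each probe, with column medians from -0.22 to 0.33. After centring by probe and array, 100.0% of its values lay within 0.05 of those used here.

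Of 59305 spots that are not controls, 3777 outlier spots over the 24 arrays were left out, and none was saturated. From each log2 intensity its array's 75th percentile was subtracted, and repeated spots were averaged to 55681 probes. A gene is given by its brightest probe over 24 arrays. The accessions of 10 of the 11 member probes matched the RefSeq gene table (GRCm38.p6), and that of Tpsab1 had no entry. The promoter bases are RefSeq's for that build. Tests used limma 3.58.1 (R 4.3.3) over all probes, on the 6 arrays of a comparison or the 12 or 18 named, with the thresholds of the study's methods. Benjamini-Hochberg adjustment ran over all probes. With 3 arrays a group, the smallest two-sided p of an exact permutation test is 0.1, and the number of arrays limits the precision. The fits were tested on simulated data. Correlations used numpy 2.4.6, and figures matplotlib 3.10.9.

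The members and lists were chosen with earlier results of these data known. Named are all members, the list genes past the thresholds in a strain or LDIR comparison (at most 5 for each list and comparison), genes a member result needs, and the 5 genes most like the members. Melanocyte, skin epidermis, neutrophil and skeletal muscle markers were listed too. Of these, the neutrophil gene Ly6g was called after LDIR in BALB/c at 4 weeks and in the interaction, the neutrophil gene S100a9 (lower) and the epidermal gene Krt1 (higher) in the fit over all BALB/c times, Krt1 also at 2 weeks, and none of the melanocyte or muscle markers was called by limma in a strain or LDIR comparison. The alternatives were the authors' log2 values, normexp (offset 50) or quantile normalization, no removal of outlier spots, probes above background on 3 or more arrays, the methods' t-test, a block for replicate letter or for slide, a single fit of all 24 arrays, the mean of a gene's probes, each array left out, and, chosen after seeing the data, the arrays with high Cd3d left out.

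Groups share replicate letters. In BALB/c at 2 weeks the deviations of same-letter arrays correlated by 0.166 (A), 0.481 (B) and 0.171 (C). In BALB/c they correlated by -0.021, 0.140 and -0.017 at 4 weeks and by -0.561, -0.565 and 0.546 at 8 weeks. In SPRET/EiJ they correlated by 0.107, 0.176 and -0.196. The labels do not state a pairing. The main fits therefore took no arrays as pairs, and the block for replicate letter was an alternative setting only. A further listed lymphocyte marker is not reported here.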

Additional observations from a re-analysis of the deposited data

Results flagged for a closer look

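The change of Fcer1g after LDIR at 4 weeks differed between the strains by the unadjusted test only. In BALB/c it was 0.93 ± 0.26 and in SPRET/EiJ 0.06 ± 0.28 on the log2 scale (SE, n = 3 and 3), and the interaction over 12 arrays was 0.87 ± 0.38 with an unadjusted p of 0.0424 and an adjusted p of 0.957 by limma. All 3 BALB/c LDIR arrays lay above all 3 sham arrays, while the SPRET/EiJ groups overlapped. The interaction missed the p threshold in 11 of 22 alternative settings.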

How the results depend on the processing

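The number of members called depended on the setting in 7 of the 10 comparisons and was 0 throughout for LDIR in BALB/c at 2 weeks, in SPRET/EiJ and over all times. For sham strain differences (1 call) it was 0 with the methods' t-test, 0 with the replicate block and 2 with all 24 arrays in one fit, and 0 to 1 with single arrays left out. For strain differences after LDIR (3 calls) it was 4 with quantile normalization, 2 with normexp, the t-test, the replicate block, the filter on dim probes, all 24 arrays and without the array with high Cd3d, and 1 to 3 with single arrays left out. For BALB/c at 4 weeks (1 call) it was 0 with the slide block and 1 to 2 with single arrays left out. For BALB/c at 8 weeks (2 calls) it was 1 with normexp, with the t-test, with the replicate block, with all 24 arrays and without the arrays with high Cd3d, 0 with the slide block, and 0 to 2 with single arrays left out. For the interaction (1 call) it was 0 with quantile normalization, the replicate block, the slide block and all 24 arrays, and 0 to 1 with single arrays left out. From 2 to 4 weeks (0 calls) it was 0 to 6 with single arrays left out. From 4 to 8 weeks (1 call) it was 2 with quantile normalization and 2 without the arrays with high Cd3d. Of the 9 relations with Cpa3, 3 passed after normexp correction, in place of 5. With the replicate block, Hdc had an unadjusted p of 0.00222 (sham strain difference) and 0.0507 (8 weeks), Ms4a2 0.00209 and the Fcer1g interaction 0.0630 by limma. The block changed no other call among the results of the 10 genes for which it was run, and it was not run for the listed genes. The cause of these changes was not tested.

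No called value of a single gene changed sign. Values that were not called did in these settings. Cma1 in sham strain tissues was 0.026 with normexp and -0.42 to 0.59 with single arrays left out. With single arrays left out, Mcpt4 ranged from -0.74 to 0.13 and Fcer1a from -2.03 to 0.077 in sham strain tissues. In LDIR strain tissues, Cpa3 ranged from -0.15 to 0.52 and Fcer1a from -0.29 to 0.28, and Cpa3 was -0.15 without the array with high Cd3d. After LDIR at 2 weeks, Cpa3 ranged from -1.15 to 0.60 and Mcpt4 from -0.82 to 0.088. In SPRET/EiJ, Cpa3 ranged from -0.63 to 0.096 and Mcpt4 from -0.82 to 0.013, with 0.096 and 0.013 without the array with high Cd3d. Mcpt4 at 4 weeks in BALB/c was -0.018 with the slide block. Signals near background limit Ms4a2, Tpsab1 and Fcer1a.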

Other observations

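A Ms4a2 signal well above background was found on 2 arrays, BALB/c LDIR C at 2 weeks with 1.11 and SPRET/EiJ sham C with -5.17, and the other 22 ranged from -8.04 to -5.52. Cpa3 on the first of these arrays was -0.80, the lowest of its group.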
